A study of Mus musculus with 2 samples.

Results

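The Mir322 cluster is a row of microRNA genes on the mouse X chromosome. Its members were chosen by name alone, as every gene called Mir322, Mir503, Mir351, Mir542 or a name beginning with Mir450, which gave 7 of the 2202 microRNA genes counted. The members are Mir322, Mir503, Mir351, Mir542, Mir450-2, Mir450-1 and Mir450b. They were measured by microRNA sequencing of inserts shorter than 30 nt from tissue labelled as gastrocnemius, the large calf muscle, of male B6CASTF1/J mice (first-generation hybrids of C57BL/6 and CAST parents) at an age of 4 days. The labels give 1 group of 2 libraries and name no treatment and no other genotype. Replicate 2 came from the animal numbered 4 and replicate 1 from the animal numbered 3, as separate biosamples that carry 1 shared donor identifier. There was no second condition, so comparisons are between these libraries, and ratios are replicate 2 over replicate 1.

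The members lie on the minus strand within 6353 nt and are thought to be cut from shared primary transcripts. In cultured mouse myoblasts, miR-322 (called miR-424 in humans) and miR-503 accumulate as cells leave the cell cycle and differentiate, and both repress the cell cycle phosphatase Cdc25a. A microRNA finds its targets mainly through its seed, bases 2 to 8 of the mature strand, so microRNAs with the same seed recognise largely overlapping sets of messenger RNAs. The cell cycle itself was not measured here, and the name of the cluster as one of cell cycle exit is background.

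Before the members' values, a check of the tissue label is needed. Mir206, a microRNA restricted to skeletal muscle, had 101 reads in replicate 2 and 652657 in replicate 1. Mir208a, a microRNA of the heart muscle gene Myh6, had 29718 reads in replicate 2 and 59 in replicate 1. A list of 7 skeletal muscle genes held 1759 reads in replicate 2 and 653676 in replicate 1, where Mir206 made up nearly the whole sum in replicate 1. Of its 6 tested, 3 were lower and 1 was higher in replicate 2, where 36.1% of all tested genes were lower and 17.6% higher. The higher one was Mir486, with 1468 reads in replicate 2 and 456 in replicate 1, which shares 22 nt with Mir3107. Mir1a-2, with 156 reads in replicate 2 and 87 in replicate 1, shares 22 nt with Mir1a-1 and Mir1b and stood at a log2 ratio of 0.75. The search for shared runs covered both strands, so it does not tell another locus from a gene on the opposite strand. Reads that map to several places were not counted, so the list's sum leaves out any such reads. The counts of Mir206 and Mir208a go against the tissue label of replicate 2, so that label may be wrong. Each library is called here by its label, and a mean ± SD over both libraries may not be a spread within 1 tissue. On the sense strand of microRNA genes, replicate 2 had 3073086 reads (42.4% of its file) and replicate 1 had 4458853 reads (52.3% of its file). Every difference between the libraries given below moves together with Mir206 and Mir208a, and the part of tissue makeup in it was not tested. Fewer cells of a type and less RNA per cell cannot be told apart in such bulk samples.

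From 5′ to 3′ the genes run as Mir322 (mm10 chrX:53054255-53054349), Mir503 (chrX:53053984-53054054), Mir351 (chrX:53053255-53053353), Mir542 (chrX:53049403-53049487), Mir450-2 (chrX:53048299-53048367), Mir450-1 (chrX:53048154-53048244) and Mir450b (chrX:53047997-53048078). Mir503 starts 295 nt and Mir351 996 nt after the start of Mir322. A gap of 3767 nt separates Mir351 from Mir542, and it holds the noncoding gene Gm28730. Mir450-2, Mir450-1 and Mir450b follow with gaps of 54 and 75 nt between them. No member overlaps another annotated gene, exon or intron. The noncoding gene C430049B03Rik lies 696 nt before Mir322 on the same strand, and Hprt, a purine salvage enzyme gene, lies 26337 nt past Mir450b on the other strand.

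The mature sequences below (RefSeq, GRCm38.p6, 5′ to 3′) show which members share a seed with each other and with genes elsewhere, since the results turn on that grouping. Capitals mark bases 2 to 8. All 7 members were found in the RefSeq table.
mmu-miR-322-5p: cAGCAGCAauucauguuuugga
mmu-miR-15a-5p: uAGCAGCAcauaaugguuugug
mmu-miR-15b-5p: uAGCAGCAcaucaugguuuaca
mmu-miR-16-5p: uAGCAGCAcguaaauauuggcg
mmu-miR-195a-5p: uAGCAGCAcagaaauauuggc
mmu-miR-497a-5p: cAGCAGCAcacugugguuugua
mmu-miR-503-5p: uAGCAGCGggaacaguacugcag
mmu-miR-351-5p: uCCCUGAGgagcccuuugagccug
mmu-miR-125a-5p: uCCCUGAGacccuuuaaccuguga
mmu-miR-125b-5p: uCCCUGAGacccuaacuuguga
mmu-miR-542-3p: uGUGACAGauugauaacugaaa
mmu-miR-450a-5p: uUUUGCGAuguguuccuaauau
mmu-miR-450b-5p: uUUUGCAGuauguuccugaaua
mmu-miR-450a-1-3p: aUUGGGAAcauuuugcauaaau
mmu-miR-450a-2-3p: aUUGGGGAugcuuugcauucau
mmu-miR-450b-3p: aUUGGGAAcauuuugcaugcau

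miR-322-5p has the same seed as miR-15, miR-16, miR-195 and miR-497. With the seed included, it matches miR-15b-5p at 16 of 22 positions and miR-16-5p at 12 of 22, counted without gaps from the 5′ end. miR-503-5p is identical to miR-322-5p from base 2 to base 7 and differs at the last seed base (A8G, miR-322 base first, positions from 1 at the 5′ end). miR-351-5p has the seed of the miR-125 family, of which miR-125b is the mouse counterpart of the worm developmental timing microRNA lin-4, and matches miR-125a-5p at 10 of 24 positions. The 5′ arm miR-450a-5p is identical in Mir450-1 and Mir450-2, while their 3′ arms match at 16 of 22 positions and have different seeds. The files count reads per gene, so the arms of a member cannot be told apart.

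Mir450-1 and Mir450-2 share a run of 25 nt that holds the whole of miR-450a-5p. Reads that map to several places are set aside in a summary line of the files, which took 45.1% of all reads in replicate 2 and 35.7% in replicate 1. The counts of these members are therefore uncertain and leave out any read that lies within the shared run. No other member shares 22 nt with an annotated microRNA gene. All 7 members had 0 antisense reads in both libraries.

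Together the members held 59211 reads in replicate 2, 1.93% of its microRNA reads (exact Clopper-Pearson 95% interval 1.91 to 1.94%), and 134734 reads in replicate 1, 3.02% (3.01 to 3.04%). The mean was 2.47% ± 0.774 (SD, n = 2). These intervals, and all that follow, cover counting error only. Levels below are in CPM, reads scaled to a common library total, and are relative to all sense microRNA reads of a library. CPM were not divided by length, because an insert shorter than 30 nt spans a whole mature arm.

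Mir322 was the most abundant member in both libraries. It had 44556 reads (14499 CPM) in replicate 2 and 84821 reads (19023 CPM) in replicate 1, and ranked 14 among all microRNA genes in each. Its neighbour Mir503 had 559 reads (182 CPM) in replicate 2 and 3573 reads (801 CPM) in replicate 1, at rank 131 in replicate 2 and rank 91 in replicate 1. The closely spaced pair thus differed widely in counted reads, with 1.25 reads of Mir503 for every 100 of Mir322 in replicate 2 and 4.21 in replicate 1.

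Mir351, with the seed of the miR-125 family, was next in abundance. It had 10200 reads (3319 CPM) in replicate 2 and 36724 reads (8236 CPM) in replicate 1. Mir542, whose arm miR-542-3p is known to repress the human survival factor survivin, had 3189 reads (1038 CPM) in replicate 2 and 7323 reads (1642 CPM) in replicate 1. Replicate 2 was the lower library in CPM for all members named so far.

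Of the Mir450 genes at the 3′ end, Mir450b was the most abundant, with 638 reads (208 CPM) in replicate 2 and 2002 reads (449 CPM) in replicate 1. Mir450-1 had 35 reads (11.4 CPM) in replicate 2 and 250 reads (56.1 CPM) in replicate 1. Mir450-2 had 34 reads (11.1 CPM) in replicate 2 and 41 reads (9.20 CPM) in replicate 1. Mir450-2 was the 1 member with a higher CPM in replicate 2, within counting error.

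**Figure D1:**
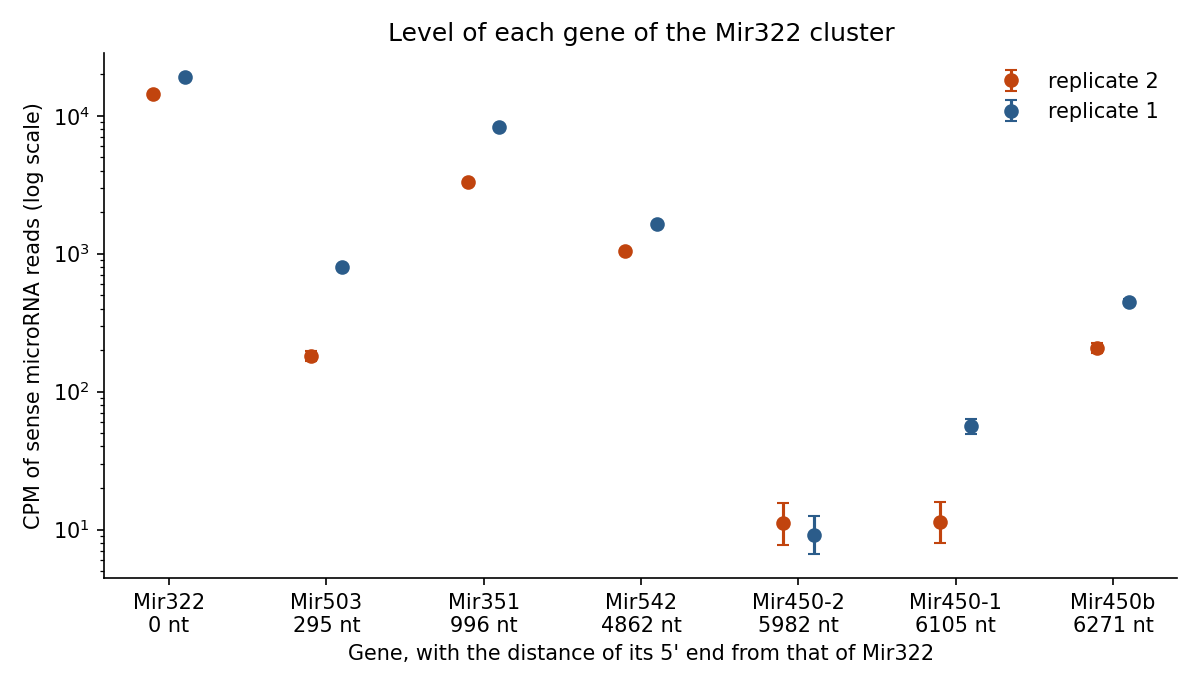
CPM of sense microRNA reads (log axis) of the 7 genes, in order along the minus strand with the distance of each 5′ end from that of Mir322. Points are the libraries and bars are exact 95% counting intervals. Mir322 stands highest in both libraries, at 14499 and 19023 CPM in replicates 2 and 1, and Mir450-2 is the only gene whose 2 intervals overlap.

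The order of the levels was Mir322, Mir351, Mir542, Mir503, Mir450b, Mir450-1 and Mir450-2 by mean CPM. The places of Mir450-1 and Mir450-2 are uncertain, since their counts leave out any read within their shared run. Mir322 averaged 16761 ± 3199 CPM, Mir351 5778 ± 3477 CPM and Mir542 1340.0 ± 428 CPM (SD, n = 2), and the library values of these genes did not overlap. Mir503 averaged 492 ± 438 CPM and Mir450b 328 ± 171 CPM (SD, n = 2), a difference smaller than either SD. Their order turned between the libraries, with Mir450b above Mir503 in replicate 2 and below it in replicate 1. Mir450-1 averaged 33.7 ± 31.6 CPM and Mir450-2 10.1 ± 1.32 CPM (SD, n = 2), which did not differ beyond the spread of Mir450-1. Per nt of annotated gene length, Mir503 came above Mir450b and Mir450-2 above Mir450-1 in replicate 2, and the order was otherwise as given. The levels did not follow the position along the cluster, since the gene after Mir322 was 1 of the less abundant members.

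The libraries were compared gene by gene with a two-sided exact binomial test of the reads, scaled by TMM, the trimmed mean of M values, and with Benjamini-Hochberg adjustment over the 410 genes with at least 10 reads. A gene passed if its adjusted p was under 0.05 and its log2 ratio was 1 or more in either direction. Such a test compares 2 libraries and not conditions. All 7 members had at least 10 reads in each library and were tested. Of these, 6 were lower in replicate 2 and 0 were higher, where 36.1% of all tested genes were lower and 17.6% were higher. The members' median log2 ratio was −1.74, and that of all tested genes was −0.33. A lower call was thus common among all genes, and the members' median minus that of all genes was −1.41 with TMM, −1.39 under DESeq2 size factors and −1.37 under total reads.

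Mir503 and Mir450-1 had the lowest ratios. Mir503 had a log2 ratio of −2.76 (95% counting interval −2.90 to −2.64), which is 6.79-fold lower in replicate 2, and Mir450-1 had −2.89 (−3.48 to −2.41). Mir351 followed at −1.94 (−1.97 to −1.91) and Mir450b at −1.74 (−1.87 to −1.61). All 4 were also called lower when the libraries were scaled by DESeq2 size factors or by total reads.

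Mir542 and Mir322 lay near the threshold. Mir542 had a log2 ratio of −1.29 (−1.35 to −1.23) and lost its call with total reads, at −0.66. Mir322 had −1.02 (−1.035 to −1.002) with TMM, −0.74 under DESeq2 size factors and −0.39 under total reads, and passed only with TMM over genes of at least 10 reads. Relative to the median of all tested genes, Mir322 stood at −0.69, −0.67 and −0.65 under those scalings. Mir450-2 did not pass, at −0.35 (−1.06 to 0.33; adjusted p = 0.340 by the exact binomial test), and stood at 0.26 with total reads. The median of all tested genes itself shifted by 0.26 under DESeq2 size factors and by 0.59 under total reads. The edgeR common dispersion of the 2 libraries, which includes the difference under test, was 1.23. With it the edgeR exact test called 0 of 410 genes, 28 genes had an unadjusted p under 0.05, and the members' unadjusted p-values began at 0.300.

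**Figure D2:**
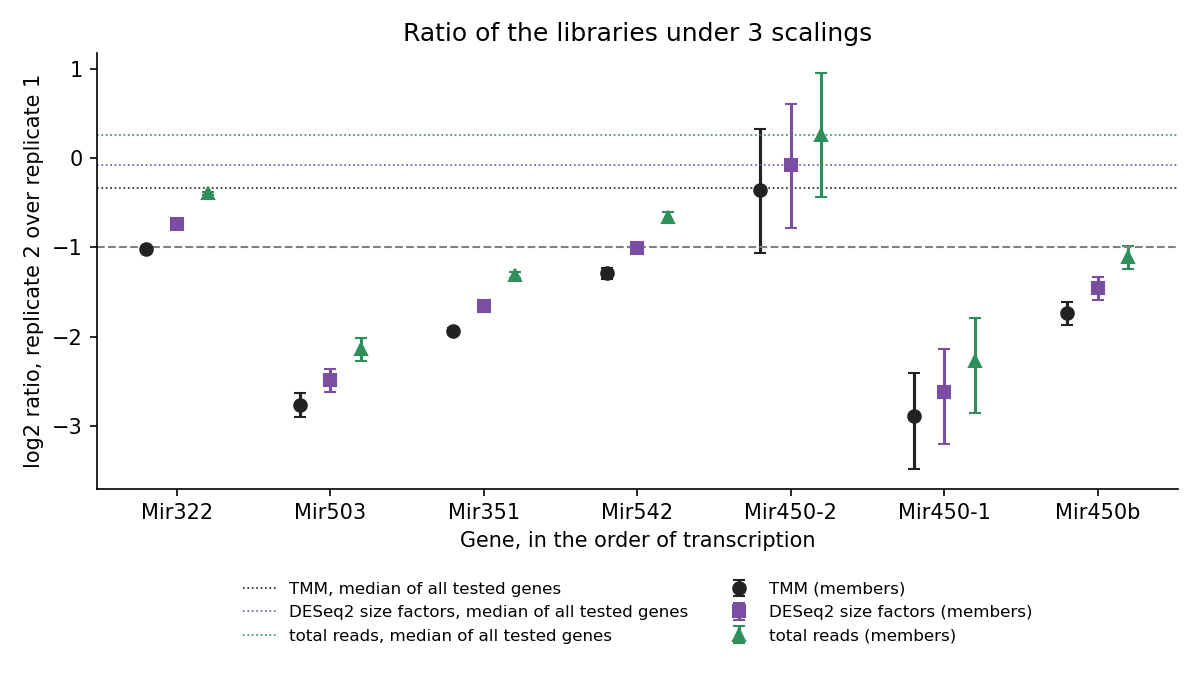
Log2 ratio of replicate 2 over replicate 1 for each member under TMM, DESeq2 size factors and total reads, with 95% counting intervals. Dotted lines are the median of all tested genes under each scaling and the dashed line is the threshold of −1. Mir503, Mir351, Mir450-1 and Mir450b lie below the threshold under all 3 scalings, and Mir322 lies below it under TMM alone, at −1.02.

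The members did not change in step. The makeup of the cluster, which does not depend on how the libraries are scaled, shifted towards Mir322 in replicate 2. Mir322 held 75.2% of the cluster's reads (74.9 to 75.6%) in replicate 2 and 63.0% (62.7 to 63.2%) in replicate 1. Mir351 held 17.2% (16.9 to 17.5%) in replicate 2 and 27.3% (27.0 to 27.5%) in replicate 1. Mir503 held 0.944% (0.868 to 1.03%) in replicate 2 and 2.65% (2.57 to 2.74%) in replicate 1. The intervals of these genes did not overlap between the libraries, whereas those of Mir542, at 5.39% in replicate 2 and 5.44% in replicate 1, did.

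Set against Mir322 within each library, a member's log2 ratio minus that of Mir322 was −1.75 (−1.88 to −1.62) for Mir503 and −0.92 (−0.96 to −0.88) for Mir351. The same difference was −0.72 (−0.85 to −0.59) for Mir450b, −0.27 (−0.33 to −0.21) for Mir542 and −1.91 (−2.42 to −1.40) for Mir450-1. For Mir450-2 it was 0.66 (0.0026 to 1.31). Along the cluster from 5′ to 3′ the ratio was low at Mir503, became less negative with each gene from there through Mir351 and Mir542 to Mir450-2, and was low again at Mir450-1. With 1 group of 2 libraries the spread between animals behind these shifts cannot be estimated apart from the difference itself.

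Besides Mir322, 10 annotated genes have a mature arm with its seed, of which 6 were tested and the other 4 had 0 reads. Of those tested, 2 were higher and 1 was lower in replicate 2. Mir15b had 6761 reads in replicate 2 and 1539 in replicate 1, a log2 ratio of 2.04 (1.97 to 2.13), and was called higher. Mir497 had 7772 reads in replicate 2 and 2013 in replicate 1, a log2 ratio of 1.86 (1.79 to 1.93), and was also higher. It shares 22 nt with Mir497b in a search of both strands, which does not tell another locus from a gene on the opposite strand. Mir15a, with 7012 reads in replicate 2 and 4644 in replicate 1, stood at 0.50 and did not pass, though it was called higher with total reads, at 1.13. Mir195a, with 3490 reads in replicate 2 and 1655 in replicate 1, stood just under the threshold at 0.99 and passed it under both other scalings, at 1.26 (DESeq2) and 1.61 (total reads). Mir16-1, with 796 reads in replicate 2 and 892 in replicate 1, stood at −0.25. Mir16-2, with 148 reads in replicate 2 and 364 in replicate 1, was lower at −1.38, and lost its call with total reads, at −0.76. The counts of the Mir16 genes are uncertain, since both hold the same mature arm miR-16-5p and its reads map to both.

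The counted reads with the miR-322 seed differed in makeup between the libraries. Together they took 2.30% of microRNA reads in replicate 2 and 2.15% in replicate 1, while with TMM their sum had a log2 ratio of −0.53 (−0.55 to −0.52). Whether the sum was similar or lower thus depended on the scaling. Of these reads, Mir322 supplied 63.2% (62.8 to 63.5%) in replicate 2 and 88.4% (88.2 to 88.6%) in replicate 1. The summed reads of the other genes with this seed had a log2 ratio of 1.14 (1.10 to 1.17), against −1.02 for Mir322. Reads of miR-16-5p set aside for mapping to both Mir16 genes are missing from these totals, so Mir322's part of all molecules with the seed was not measured.

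The seed of miR-351-5p also stood in genes outside the cluster. Of 5 other annotated genes with it, 3 were tested and 2 had 0 reads in both libraries. Mir125a had 24444 reads in replicate 2 and 13329 in replicate 1, a log2 ratio of 0.79 (0.75 to 0.82) that did not pass with TMM and did under DESeq2 size factors (1.06) and total reads (1.41). Mir125b-1, with 692 reads in replicate 2 and 1871 in replicate 1, was lower at −1.52 (−0.90 and no call with total reads), and Mir125b-2, with 472 reads in replicate 2 and 589 in replicate 1, stood at −0.41. These last genes share the mature arm miR-125b-5p, and their counts are uncertain for the same reason as above. Counted reads with the seed took 1.17% of microRNA reads in replicate 2 and 1.18% in replicate 1, and with TMM their sum had a log2 ratio of −0.64 (−0.66 to −0.62). Mir351 supplied 28.5% of them (28.0 to 29.0%) in replicate 2 and 69.9% (69.5 to 70.3%) in replicate 1.

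**Figure D3:**
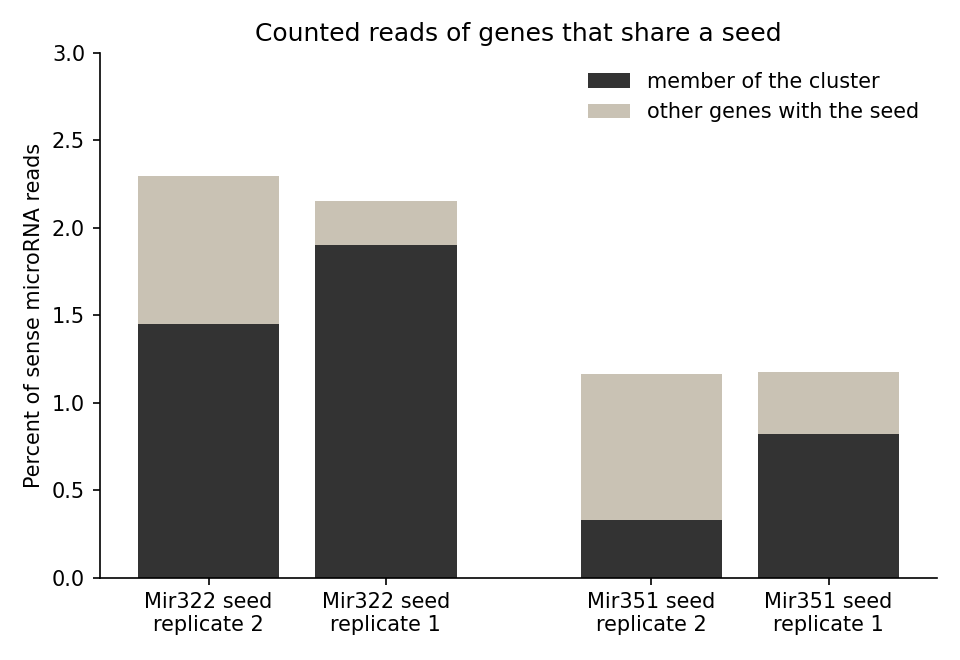
Percent of sense microRNA reads counted for genes with the miR-322 seed and for genes with the miR-351 seed, in replicate 2 and replicate 1. Dark bars are the cluster's member and light bars are the other genes with the seed. As shares of all microRNA reads the bar heights are close between libraries (2.30% in replicate 2 and 2.15% in replicate 1 for the miR-322 seed, 1.17% and 1.18% in the same order for the miR-351 seed), while the dark part is smaller in replicate 2. With TMM scaling, which is not plotted, the totals were lower in replicate 2, at −0.53 and −0.64 on the log2 scale.

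The remaining seeds of the cluster had few partners. The seed of miR-542-5p recurred in Mir6966, with 7 reads in replicate 2 and 4 in replicate 1, and stood at a log2 ratio of 0.60 (−1.26 to 2.94). The seed shared by the 3′ arms of Mir450-1 and Mir450b recurred in Mir6352, with 0 reads in both libraries. Over all 17 genes that share a seed with a member, 10 were tested, 2 were higher and 2 were lower in replicate 2, with a median log2 ratio of 0.55, where 17.6% of all tested genes were higher and 36.1% were lower. These counts depended on the scaling, with 4 higher and 2 lower under DESeq2 size factors and 5 higher and 0 lower under total reads. Of all 410 tested genes, 100 were higher and 127 lower under DESeq2 size factors, and 135 higher and 115 lower under total reads. The table of sequences is not complete, so other genes may share these seeds.

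**Figure D4:**
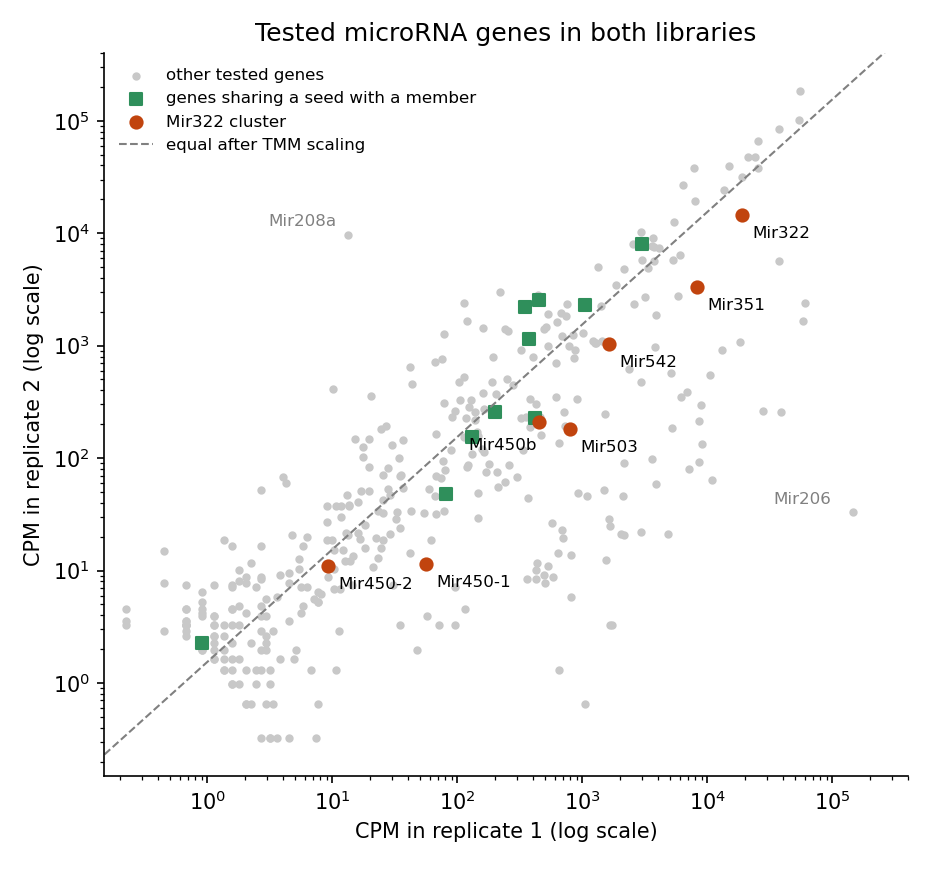
CPM in replicate 2 against replicate 1 (both axes log) for the 397 tested genes with reads in both libraries, with the Mir322 cluster and the genes sharing a seed with a member marked. The dashed line marks equal levels after TMM scaling. The members lie on or below it, and the most abundant genes with a shared seed lie above it. Mir206 and Mir208a stand far off the line on opposite sides.

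Other genes of the X chromosome were mixed. Outside the cluster, 135 microRNA genes are annotated there and 31 were tested, of which 14 were lower and 6 higher in replicate 2, with a median log2 ratio of −0.28, where 36.1% of all tested genes were lower and 17.6% higher. Under total reads 12 were lower and 11 were higher, with a median of 0.33. All 410 tested genes then had 115 lower and 135 higher, with a median of 0.26. With a minimum of 1 read the median was −0.81 for the X-linked genes and −0.15 for all tested genes. The most abundant of these X-linked genes was Mir652, with 38237 reads in replicate 2 and 24254 in replicate 1. Its log2 ratio of 0.57 did not pass with TMM and did with total reads, at 1.19. Mir98, of the let-7 family, stood at −0.84, with 8378 reads in replicate 2 and 14122 in replicate 1. Mirlet7f-2, which shares 22 nt with Mirlet7f-1, stood at 0.28, with 10667 reads in replicate 2 and 8256 in replicate 1. Both libraries were labelled as male.

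Genes whose levels were most like a member's were found by the Euclidean distance of log2 CPM (TMM) over the 2 libraries, among 292 genes with at least 10 reads in each. For Mir503 these were Mir500 (0.16), Mir128-1 (0.51) and Mir188 (0.52), with log2 ratios of −2.55, −2.11 and −2.86, all called lower. Mir128-1 shares 22 nt with Mir128-2. Mir500 and Mir188 are also on the X chromosome. For Mir351 they were Mir214 (0.57), Mir744 (1.03) and Mir130a (1.06), of which Mir214 was lower at −1.68. For Mir322 they were Mir26b (0.88), Mir99a (1.13) and Mir139 (1.32), none of which passed, with log2 ratios of 0.21, 0.12 and 0.66. Likeness over 2 libraries separates genes only coarsely. A small distance over both libraries also holds the ratios close. The ratios and calls of the genes nearest Mir503 thus follow from how they were chosen.

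Of 25 annotated microRNAs known to rise in or promote myoblast differentiation, 22 were tested. In replicate 2, 7 of these were lower and 5 were higher, with a median log2 ratio of 0.45. With TMM these counts are close to the background of 36.1% lower and 17.6% higher among all tested genes, and they moved with the scaling, as given below. Mir206 was lower at −12.73 and Mir27b, which represses the muscle progenitor factor Pax3 in mice, stood at 0.32. Mir195a and Mir497, described above for their seed, belong to this list too. So do Mir1a-1 and Mir1a-2, which share 22 nt, so their counts leave out any read that maps to both. Of 18 microRNAs known to promote proliferation, 16 were tested, 2 were lower and 6 were higher against the same background, with a median of 0.95. Under total reads 1 was lower and 9 were higher, where 115 of 410 tested genes were lower and 135 were higher. With TMM, Mir93 was higher at 1.26 and Mir21a was lower at −1.67.

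Markers of other cell types also differed between the libraries. Their calls stand beside 36.1% of all tested genes that were lower and 17.6% that were higher. Fibroblast markers held 0.281% of reads in replicate 2 and 0.591% in replicate 1, and 3 of 3 tested were lower, Mir214 (−1.68) and Mir199b (−2.31) among them. Mir199b and the remaining gene, Mir199a-2, each share 22 nt with the other Mir199 genes of the list. Mir199b kept 58 reads in replicate 2 and 275 in replicate 1, and Mir199a-2 kept 12 and 254. Their counts are uncertain and leave out any read that maps to several places. Endothelial markers held 6.62% of reads in replicate 2 and 2.54% in replicate 1. Smooth muscle markers held 4.90% in replicate 2 and 2.17% in replicate 1. With TMM, 0 of these 3 tested genes passed the threshold. In CPM, which follow total reads, each was more than 2-fold higher in replicate 2. Mir126a had 66160 CPM in replicate 2 and 25417 in replicate 1, Mir143 47614 and 21189, and Mir145a 1400 and 493. Leukocyte markers held 0.429% of reads in replicate 2 and 0.0793% in replicate 1, with 3 of 5 tested higher and 1 lower. Erythroid markers held 0.0979% in replicate 2 and 0.0220% in replicate 1, with 2 of 2 tested higher. Neural markers held 0.0426% in replicate 2 and 0.142% in replicate 1, with 3 of 4 tested lower, the other one (Mir219a-1, named after its value was seen) higher at 1.45, and 6 of 11 genes at 0 in both libraries. The part of these cell types in the members' ratios was not tested.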

How the data were processed

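Raw read counts per microRNA gene were used as deposited by the authors, 1 file per library, with mm10 and GENCODE M21 per the files' descriptions. Multimapping reads stand in a summary line and are not counted for any gene, the layout STAR writes. Which aligner and trimming were used is not given in the sources used here. The sense column was used, and 4 summary lines that name no gene stayed out of totals and tests (unmapped, multimapping and unannotated reads were 8.60%, 45.1% and 3.83% of replicate 2 and 9.97%, 35.7% and 2.05% of replicate 1). All 2202 gene identifiers matched GENCODE M21.

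CPM and shares are relative to 3073086 sense reads in replicate 2 and 4458853 in replicate 1, a 1.45-fold difference in depth. Shares have exact Clopper-Pearson 95% intervals. PCR reads without molecular identifiers are not independent molecules. Log2 ratios used a prior count of 1 and TMM from edgeR 4.0.16 under R 4.3.3, with two-sided exact binomial tests and Benjamini-Hochberg adjustment over genes with at least 10 reads. Adjusted p-values mostly were too small to be stored, so counting intervals are given. Ratios between members used Wald 95% intervals. With a single group, no contrast could be fitted with replicates. The labels do not say how the animals were related beyond a shared donor identifier, so spread between the libraries may be technical or biological.

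Alternatives were DESeq2 1.42.0 size factors, total reads, minimums of 1 and 100 reads, the unstranded column, the edgeR exact test with pooled dispersion, shares per annotated length or of all reads, shorter windows and each library alone. The binomial test was tried on simulated Poisson counts, drawn with the same library sizes that the test assumes. Such counts hold no spread beyond counting error, so they do not show how the test performs on these libraries. Python 3.11.15, numpy 2.4.6, scipy 1.17.1, pandas 2.3.3 and Biopython 1.88 were used.

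The members, lists and tests were chosen with earlier results of these data known. Genes named are the members, every tested gene sharing a seed, the 3 X-linked genes with the most reads, the 3 nearest in level to Mir322, Mir503 and Mir351, the 2 with the most reads of a list, and Mir206 and Mir208a. Mir1a-2, Mir199a-2 and the genes that share a run with a named gene are given to show the limit of their counts.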

Additional observations from a re-analysis of the deposited data

How the results depend on the processing

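The members' median log2 ratio of −1.74 became −1.46 with DESeq2 size factors, −1.11 with total reads, −1.54 with a minimum of 1 read, −1.46 with a minimum of 100 reads and −1.57 with the unstranded column. It was −1.74 also without the members that share a stretch, and the median of all tested genes moved with it. Lower members numbered 5, 4, 5, 4 and 5 under those settings in the same order, and 0 with the edgeR exact test and pooled dispersion. Of all tested genes, 31.0%, 28.0%, 18.4%, 36.8% and 31.4% were lower under the same settings. Mir322 lost its call under each setting and with the edgeR test. Mir542 lost its call with total reads and with a minimum of 100 reads. Mir450-2, never called, turned to 0.26 under total reads, and the median of X-linked genes outside the cluster turned to 0.33. The share of higher calls among all called genes was 32.7% with TMM, 44.1% under DESeq2 size factors and 54.0% under total reads. Of the 22 tested genes of the differentiation list, 4 were lower and 9 higher under DESeq2 size factors. Under total reads 3 were lower and 11 higher. Among all 410 tested genes, 127 were lower and 100 higher with DESeq2 size factors, and 115 lower and 135 higher with total reads. Under these scalings the list held a larger part of higher calls than all tested genes did. In the unstranded column 17 of the list were tested, with 4 lower, 4 higher and a median of 0.07. Of all 385 genes tested there, 121 were lower and 84 higher. With a minimum of 1 read, 4 of 24 were lower and 7 higher (132 and 96 of all 719). With a minimum of 100 reads, 3 of 17 were lower and 9 higher (98 and 75 of all 266).

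The cluster's mean share of 2.47% was 1.20% of all reads in the files. In an alternative chosen after seeing the data, without Mir206 and 67 Dlk1-Dio3 genes in the total, it was 3.85%, with 1.95% in replicate 2 and 5.76% in replicate 1. Each library alone gave 1.93 to 3.02%. Per annotated length, the mean part of Mir542 in the cluster was 6.01%, against 5.41% by reads. No paired analysis was possible because there is 1 group. Counting error is largest for Mir450-1 and Mir450-2, with 35 and 34 reads in replicate 2. Their counts also leave out any read within their shared run, which more depth would not recover.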

Other observations

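A second set of X-linked microRNA genes had low ratios around that of Mir503, at −2.76. They were chosen after their values were seen, as the annotated genes around Mir500 and Mir188. Mir501 had 764 reads in replicate 2 and 6754 in replicate 1, a log2 ratio of −3.23. Mir532 had 2963 reads in replicate 2 and 17154 in replicate 1, a log2 ratio of −2.62. Mir362, with 90 reads in replicate 2 and 648 in replicate 1, stood at −2.92. All 3 were called lower by the binomial test, as were Mir500 and Mir188, where 36.1% of all tested genes were lower. Since all of them were chosen with their values known, these calls are no separate result.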
